A study of Mus musculus with 6 samples.

Results

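Control kidneys were compared with kidneys that overexpress adiponectin in the tubule. The genes described are a set of 10 named for the fibroblasts, pericytes and smooth muscle cells of the kidney. They are *Acta2*, *Myh11*, *Tagln*, *Des*, *Pdgfra*, *Pdgfrb*, *Dcn*, *Postn*, *Fn1* and *Tgfb1*. They were taken by name, as the rows of the count table whose Ensembl identifiers carry these symbols in GENCODE M21, and all 10 were found among its 54532 rows. The rule that names them uses no measured value, but the set was chosen with earlier results of these data known.

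The samples are whole kidneys of KsprtTA mice (Control) and of KsprtTA/TRE-adiponectin mice (KSPAPN), and both groups ate doxycycline chow at 600 mg/kg for 4 days. In KSPAPN mice the doxycycline-dependent activator rtTA is driven by the Ksp promoter in the epithelium from proximal tubule to collecting duct. The transgene is thus meant to be made in epithelial cells, and not in the stromal and mural cells that this set of genes is named for. Each group has 3 RNA-seq libraries, and each library is a pool of 3 mice, so 9 mice stand behind a group. The sample labels call the Control genotype WT, where the paper gives KsprtTA without the adiponectin transgene, and they describe extraction from liver for samples whose tissue they give as kidney; the age of these mice is not given in the sources used here.

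Fibroblasts and pericytes lie between the tubules and capillaries of the kidney, mesangial cells hold the capillary loops of the glomerulus together, and smooth muscle cells form the wall of its arteries and arterioles. Pericytes and fibroblasts can turn into myofibroblasts, which contract and lay down collagen and fibronectin, and they are the main source of scar matrix when the kidney becomes fibrotic. The growth factors PDGF, which binds the receptors *Pdgfra* and *Pdgfrb*, and TGF-beta drive this step, and in the smooth muscle cell the transcription factor SRF switches on contractile genes through a DNA motif called the CArG box.

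Counts per library were between 17183358 and 20871173. *Adipoq*, the gene of the transgene, had 2, 0 and 2 counts in the Control libraries and 24629, 17483 and 26811 counts in the KSPAPN libraries, as their labels say. Kidney markers were present in every library. The summed level of 10 proximal tubule markers was between 3010 and 3580 FPKM (fragments scaled by gene length and library size), that of 7 podocyte markers between 44.1 and 85.7 FPKM and that of 10 endothelial markers between 62.1 and 77.8 FPKM. Among the markers of liver, *Alb* (albumin) was between 0.275 and 4.46 FPKM, but the list as a whole was not low. The 10 liver markers summed to 696, 861 and 544 FPKM in Control replicates 1 to 3. In KSPAPN replicates 1 to 3 they summed to 315, 480 and 371 FPKM. Of the 10, 7 had counts enough to be compared between groups, and *Cyp2e1*, 1 of these, is also known in proximal tubule. The sum can thus not be read as liver RNA alone, and the source of these transcripts was not tested.

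The replicates were not alike for the stromal genes. Control replicate 2 had the lowest FPKM of its group for 8 of the 10 genes and KSPAPN replicate 2 for 9 of the 10, whereas these libraries were lowest for 34.4% and 31.0% of the 16017 genes tested. The 10 genes summed to 40.8, 31.0 and 43.7 FPKM in Control replicates 1 to 3 and to 43.4, 33.4 and 48.5 FPKM in KSPAPN replicates 1 to 3. Both libraries numbered 2 were thus the lowest of their group, and the groups overlapped. Markers of other cell types moved with them in part. The podocyte markers summed to 63.8, 44.1 and 69.0 FPKM in Control and 64.9, 63.1 and 85.7 FPKM in KSPAPN, and the endothelial markers to 77.8, 62.1 and 69.4 FPKM and to 72.9, 62.2 and 77.5 FPKM. The proximal tubule markers had no such dip, with 3580, 3469 and 3227 FPKM in Control and 3010, 3179 and 3116 FPKM in KSPAPN. The part of these marker lists in the levels of the 10 genes was not tested. In whole tissue, fewer cells of a type and less RNA per cell cannot be told apart.

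**Figure D1:**
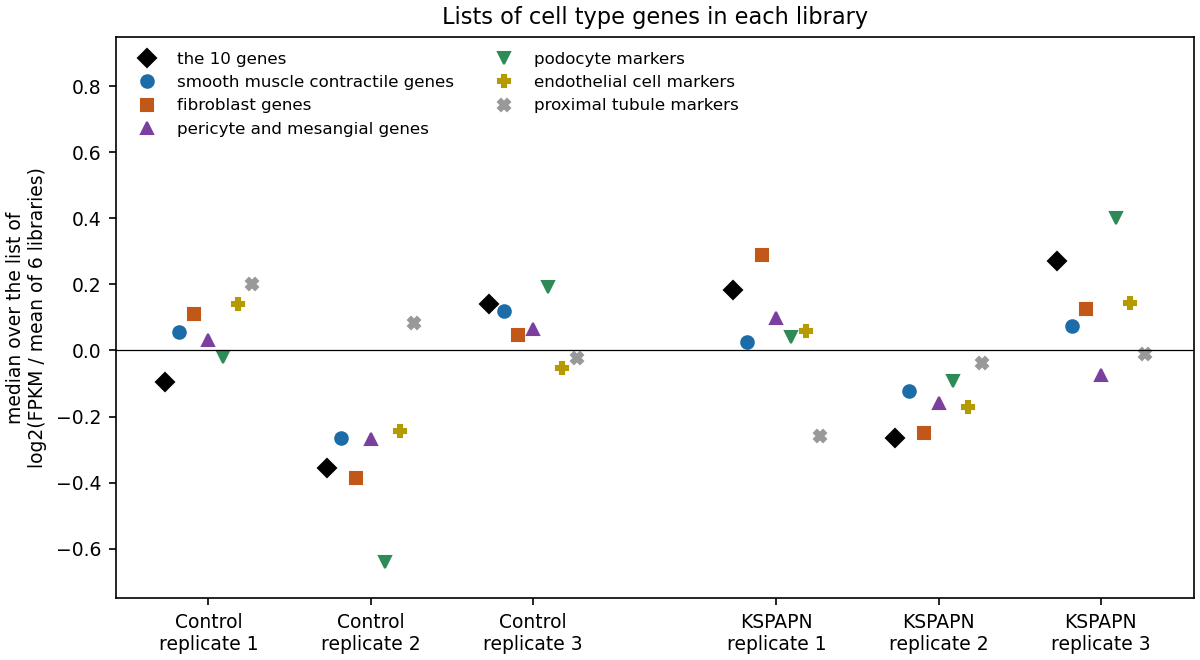
Median level of gene lists in each library. The y axis is the median over a list's genes of log2(FPKM divided by the gene's mean over the 6 libraries), the x axis holds the libraries, and each symbol is 1 list. In the libraries numbered 2 the 10 genes sit at -0.36 (Control) and -0.27 (KSPAPN), with fibroblast, pericyte, smooth muscle, podocyte and endothelial lists also below 0.

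The motif through which SRF acts was looked for in the promoters of the members and of further smooth muscle genes. The CArG box (CC, then 6 bases that are A or T, then GG, searched on both strands) was sought in the 250 bases before the start site, in RefSeq promoters of GRCm38.p6. It was found in 1.47% of the 32851 promoters of the table. Of the members, 5 had a promoter there (*Acta2*, *Des*, *Pdgfra*, *Postn* and *Tgfb1*), and 0 of the 5 held an exact CArG box. The contractile genes *Myh11* and *Tagln* had no promoter there, so of the smooth muscle members only *Acta2* and *Des* were searched. With 1 differing base allowed, which 18.6% of all promoters met, *Acta2* held 2 such boxes, from 84 to 75 and from 34 to 25 bases before its RefSeq start. That start lies inside the GENCODE span of *Acta2* (chr19:34241090-34255590, minus strand), and so do these boxes. A further list of 18 smooth muscle contractile genes had 16 promoters in the table, of which 4 held the exact box (*Myl9*, *Myl6*, *Vcl* and *Srf*) and 8 held it with at most 1 differing base. The stretches below, from chr19:34255383-34255472 (minus strand), chr17:46556200-46556259 (minus strand) and chr2:156775288-156775327 (plus strand), show the boxes in *Acta2*, in *Srf* itself and in *Myl9*, a myosin light chain gene. They are written 5′ to 3′ with the boxes in capitals, inexact in *Acta2* and exact in *Srf* and *Myl9*.
Acta2: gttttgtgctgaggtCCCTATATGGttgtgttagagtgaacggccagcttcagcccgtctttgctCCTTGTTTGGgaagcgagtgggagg
Srf: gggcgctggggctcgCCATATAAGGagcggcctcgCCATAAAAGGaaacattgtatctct
Myl9: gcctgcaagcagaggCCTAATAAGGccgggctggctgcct
A match of letters is a description of the promoter and not evidence of binding, and the absence of a match in this window says nothing about the factor.

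Adiponectin overexpression for 4 days was followed by no difference past the threshold in any of the 10 genes. With edgeR's quasi-likelihood test at an adjusted p under 0.05, 0 of 10 were higher and 0 of 10 were lower in KSPAPN, where 0.393% of all genes tested were called higher, 2.25% were called lower and 2.65% were called in either direction. At an unadjusted p under 0.05, *Dcn* alone of the 10 was higher, against 7.52% of all genes tested, and DESeq2, which called 7.22% of its genes, called 0 of the 9 members to which it gave an adjusted p. The FPKM ranges of the groups overlapped for all 10 genes, and 24.4% of the genes tested had ranges that did not overlap. The fitted log2 fold change was above 0 for 9 of the 10 and below 0 for *Acta2*, with a median of 0.15, and over all genes tested 51.9% were above 0 with a median of 0.01. This median is of genes whose levels dip together in the libraries numbered 2. Without those libraries it was 0.21, and it ranged from 0.04 without Control replicate 2 to 0.33 without KSPAPN replicate 2.

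**Figure D2:**
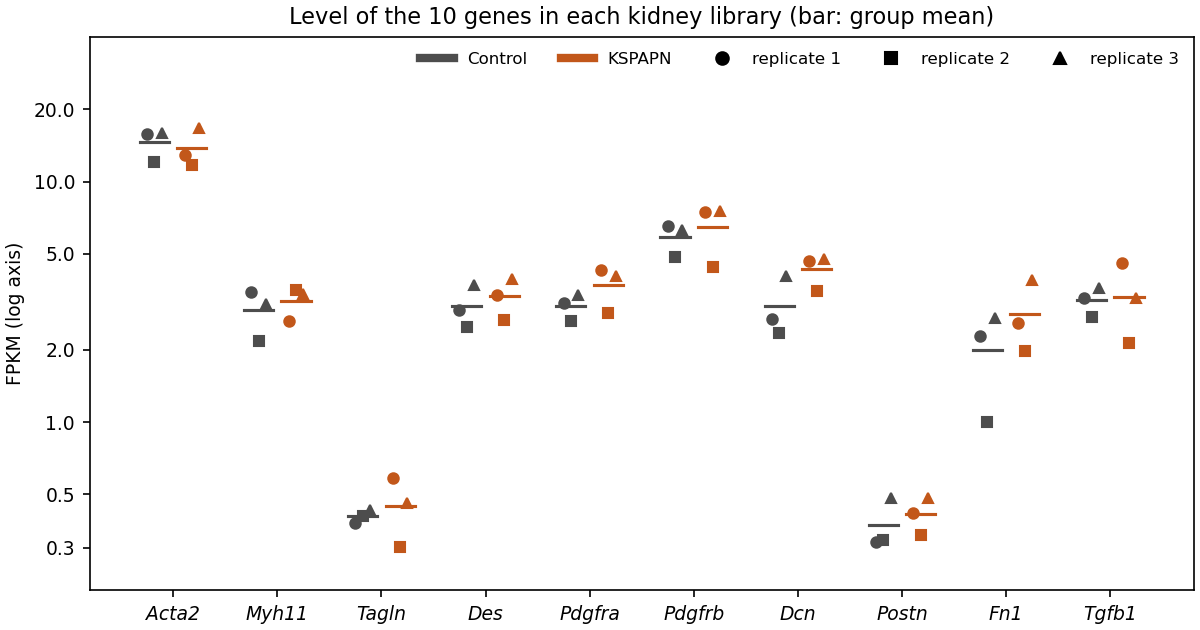
Level of the 10 genes in each library. The y axis is FPKM on a log scale, the x axis holds the genes, grey symbols are Control and orange symbols KSPAPN libraries, the shape gives the replicate number and the bar the group mean. The groups overlap for every gene, and the square (replicate 2) is the lowest of its group for 8 genes in Control and 9 in KSPAPN.

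The order of the levels was read from FPKM, a value per length. *Acta2* stood first with a mean of 14.2 FPKM over the 6 libraries and *Pdgfrb* second with 6.18 FPKM, and each was above the next gene in 6 of 6 libraries. *Dcn* (3.67), *Pdgfra* (3.39), *Tgfb1* (3.26), *Des* (3.19) and *Myh11* (3.06 FPKM) followed, and within this run a gene exceeded its next neighbour in 2 to 4 of the 6 libraries, so their order is not separated by the spread. *Myh11* was above *Fn1* (2.41 FPKM) in 5 of 6 libraries, and *Fn1* above *Tagln* in 6 of 6. *Tagln* (0.427) and *Postn* (0.394 FPKM) came last and were not separated from each other, with *Tagln* above in 3 of 6. The deposited FPKM of *Acta2* corresponds to a length 0.828 times its GENCODE exon length, where the other 9 genes stand at 1.02, so that its place is somewhat raised by the length used.

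The contractile genes of smooth muscle were taken first. *Acta2* (ENSMUSG00000035783, chr19:34241090-34255590, minus strand, GRCm38), which encodes the smooth muscle actin of arterial walls and myofibroblasts, had 15.8, 12.1 and 15.9 FPKM in Control replicates 1 to 3 and 12.9, 11.7 and 16.7 FPKM in KSPAPN replicates 1 to 3. The highest and the lowest value were both in KSPAPN, so that the Control range lay within that of KSPAPN. The means were 14.6 ± 2.16 and 13.8 ± 2.60 FPKM (SD, n = 3 each), the log2 fold change was -0.08 (SE 0.16) and edgeR's adjusted p was 0.835. The 95% interval allowed from 0.739-fold to 1.21-fold.

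*Myh11* (ENSMUSG00000018830, chr16:14194535-14291372, minus strand), the heavy chain of smooth muscle myosin and the marker most restricted to mature smooth muscle, had 3.47, 2.18 and 3.11 FPKM in Control and 2.63, 3.53 and 3.42 FPKM in KSPAPN. It was the member for which replicate 2 was the lowest in Control but the highest in KSPAPN. Its log2 fold change was 0.13 (SE 0.18, adjusted p = 0.744 with edgeR), and it turned to -0.04 without Control replicate 2 and to -0.12 without both libraries numbered 2. *Des* (ENSMUSG00000026208, chr1:75360329-75368579, plus strand), the intermediate filament desmin of muscle and of mesangial cells, had 2.92, 2.47 and 3.73 FPKM in Control and 3.39, 2.67 and 3.95 FPKM in KSPAPN. Within each group the order of its replicates was the same, and the difference between groups was small beside the spread in each (log2 fold change 0.14, SE 0.20, adjusted p = 0.754 with edgeR).

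*Tagln* (ENSMUSG00000032085, chr9:45929619-45936058, minus strand), which encodes the actin-binding protein transgelin of smooth muscle, was barely counted. It had 14, 14 and 15 counts in Control and 27, 11 and 19 counts in KSPAPN, or 0.380, 0.406 and 0.429 FPKM and 0.583, 0.303 and 0.461 FPKM. Its KSPAPN libraries lay on both sides of the tight Control range, and the log2 fold change of 0.17 (SE 0.41, adjusted p = 0.864 with edgeR) became -0.06 without KSPAPN replicate 1. Of its 1988 exon bases, 62.4% lie under exons of the antisense gene *Gm48529* and 5.43% under exons of *Pcsk7*, on the opposite strand. How reads in such stretches were counted is not given in the sources used here, so the level of *Tagln* is uncertain. *Acta2* stood 29.8 to 41.6 times above *Tagln* in the Control libraries and 22.1 to 38.8 times in the KSPAPN libraries on the FPKM scale, and 4.56 to 5.56 times and 3.32 to 4.90 times above *Myh11*. Both ratios overlapped between the groups.

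The receptors came next. *Pdgfra* (ENSMUSG00000029231, chr5:75152292-75198215, plus strand), the PDGF receptor of resident fibroblasts, had 3.13, 2.63 and 3.39 FPKM in Control and 4.27, 2.84 and 4.04 FPKM in KSPAPN. Replicates 1 and 3 of KSPAPN were above every Control library, and KSPAPN replicate 2 was within the Control range. The means were 3.05 ± 0.387 and 3.72 ± 0.767 FPKM (SD, n = 3 each), with a log2 fold change of 0.30 (SE 0.16) and an adjusted p of 0.363 with edgeR. It stayed above 0 when any 1 library was left out, between 0.19 and 0.46. *Pdgfrb* (ENSMUSG00000024620), the PDGF receptor of pericytes and mesangial cells, had 6.54, 4.85 and 6.32 FPKM in Control and 7.45, 4.39 and 7.55 FPKM in KSPAPN. Its pattern was like that of *Pdgfra* except that KSPAPN replicate 2 was the lowest of all 6, and the log2 fold change was 0.14 (SE 0.20, adjusted p = 0.755 with edgeR). The ratio of *Pdgfra* to *Pdgfrb* was 0.479, 0.542 and 0.537 in Control and 0.574, 0.647 and 0.536 in KSPAPN, with overlapping groups.

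The secreted matrix genes held the members with the greatest fitted differences. *Dcn* (ENSMUSG00000019929, chr10:97479609-97518143, plus strand) encodes decorin, a small proteoglycan of fibroblasts that binds collagen and TGF-beta. It had 2.69, 2.34 and 4.04 FPKM in Control and 4.66, 3.51 and 4.77 FPKM in KSPAPN. Control replicate 3 lay above KSPAPN replicate 2, and the other libraries of the groups were apart. The means were 3.02 ± 0.900 and 4.32 ± 0.696 FPKM (SD, n = 3 each), the log2 fold change was 0.52 (SE 0.21, 95% interval from 0.06 to 0.98), and edgeR's p was 0.0292 before and 0.210 after adjustment over all genes. The estimate was between 0.36 and 0.79 when a library was left out, and 0.49 without both libraries numbered 2. *Dcn* passed the threshold in 1 of the 14 alternative settings, the one without a filter on low counts (adjusted p = 0.0170), and in the other 13 its adjusted p was between 0.0573 and 0.509. With the replicate number as a block, which called 5.8% of all genes and 0 of the 10 members, it was 0.0575.

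*Fn1* (ENSMUSG00000026193, chr1:71585520-71653200, minus strand), which encodes the matrix glycoprotein fibronectin, had 2.28, 0.997 and 2.70 FPKM in Control and 2.57, 1.98 and 3.91 FPKM in KSPAPN. It varied most of the 10 among Control libraries, with a coefficient of variation of 44.6%, and Control replicate 2 lay well under both of its partners. The log2 fold change was 0.51 (SE 0.33, adjusted p = 0.442 with edgeR), and it was 0.18 without Control replicate 2 and 0.20 without KSPAPN replicate 3. Like *Dcn* it passed only when no filter on low counts was applied (adjusted p = 0.00897), and in the other 13 settings its adjusted p was between 0.0660 and 0.842. That setting called 4.55% of its 29418 genes. These include genes too sparse for the filter, which 16017 genes passed, so this share is not that of well-counted genes.

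*Postn* (ENSMUSG00000027750, chr3:54361109-54391037, plus strand), which encodes periostin, a matrix protein made by activated fibroblasts, was near the low end with 0.316, 0.325 and 0.484 FPKM in Control and 0.419, 0.339 and 0.482 FPKM in KSPAPN, from 49 to 87 counts a library. Replicate 3 was highest in both groups at almost the same level, and the log2 fold change was 0.15 (SE 0.27, adjusted p = 0.808 with edgeR). The 95% interval of the fold ran from 0.736 to 1.68.

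*Tgfb1* (ENSMUSG00000002603, chr7:25687002-25705077, plus strand), the ligand TGF-beta 1, had 3.29, 2.73 and 3.60 FPKM in Control and 4.56, 2.13 and 3.27 FPKM in KSPAPN. The KSPAPN libraries were the more scattered, with coefficients of variation of 36.7% against 13.7%, and they held both the highest and the lowest of the 6 values. The log2 fold change was 0.06 (SE 0.24, adjusted p = 0.916 with edgeR), with a 95% interval of the fold from 0.719 to 1.52. Its sign was not stable, at -0.23 without KSPAPN replicate 1 and 0.30 without KSPAPN replicate 2.

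**Figure D3:**
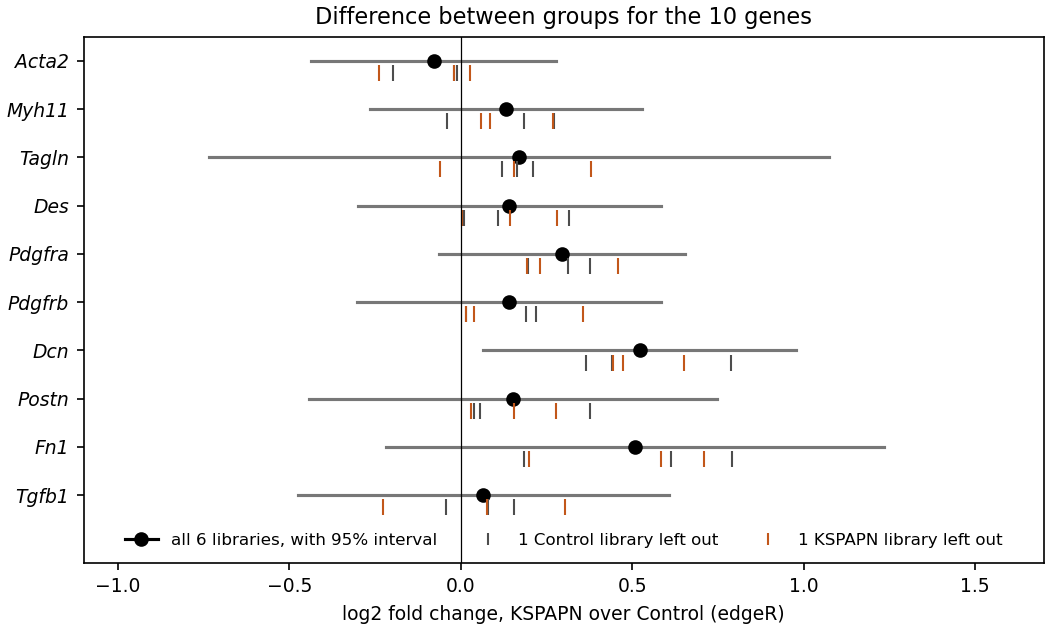
Difference between the groups for the 10 genes. The x axis is the log2 fold change of KSPAPN over Control from edgeR, black points with grey lines are the estimates with 95% intervals over all 6 libraries, and the ticks under each line are the estimates with 1 Control (grey) or 1 KSPAPN (orange) library left out. The interval of *Dcn* runs from 0.06 to 0.98 and the other 9 include 0, before any adjustment.

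Within a library the 10 genes can be read against each other, which takes out a common rise or fall. *Dcn* relative to *Acta2* was 0.170, 0.193 and 0.255 in Control and 0.362, 0.300 and 0.286 in KSPAPN on the FPKM scale, so the fibroblast proteoglycan stood higher against smooth muscle actin in each KSPAPN library than in each Control library. This was the 1 ratio of the 6 computed in which the groups did not overlap. It sets the member with the highest fitted log2 fold change (*Dcn*, 0.52) against the 1 member below 0 (*Acta2*, -0.08). Of all single genes tested, 24.4% had ranges that did not overlap. With 3 libraries against 3 an exact permutation test has no p under 0.1, and the ratio was not tested. *Fn1* relative to *Acta2* was 0.144, 0.0823 and 0.170 in Control and 0.200, 0.169 and 0.235 in KSPAPN, with KSPAPN replicate 2 just under Control replicate 3. *Dcn* relative to *Pdgfra* overlapped, at 0.859 to 1.19 in Control and 1.09 to 1.24 in KSPAPN.

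The wider gene lists named for the same cells gave few calls, and how far each gene is restricted to those cells was not tested. Of 18 smooth muscle contractile genes 14 were tested and 0 were called, with a median log2 fold change of 0.02 that was -0.07 without Control replicate 2. Their 2 extremes among genes of at least 1 FPKM were *Srf*, the factor of the CArG box, with 14.5, 11.4 and 11.1 FPKM in Control and 11.6, 7.04 and 8.22 FPKM in KSPAPN (log2 fold change -0.45, SE 0.18, adjusted p = 0.226 with edgeR), and *Actn1*, the actin crosslinker alpha-actinin 1 (0.26, adjusted p = 0.383). *Srf* was lower past the threshold with the replicate number as a block (adjusted p = 0.0430), without a filter (0.0219) and without KSPAPN replicate 1 (0.0317), and over the other alternatives its adjusted p reached 0.580. The contractile gene *Myl9*, named here for the promoter shown above, had 38.6, 28.7 and 43.8 FPKM in Control and 36.8, 35.0 and 38.2 FPKM in KSPAPN, a log2 fold change of -0.01.

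Of 14 pericyte and mesangial genes 12 were tested and 0 were called, with a median of 0.09. This median was -0.01 without Control replicate 2, -0.08 without KSPAPN replicate 1 and 0.075 without both libraries numbered 2. *Rgs5*, a regulator of G-protein signalling that marks pericytes, had 7.06, 7.70 and 9.46 FPKM in Control and 8.60, 12.7 and 12.6 FPKM in KSPAPN (log2 fold change 0.49, adjusted p = 0.134 with edgeR). It was higher past the threshold with the block (0.0321), without a filter (0.00371) and without KSPAPN replicate 1 (0.0176), and over the other alternatives its adjusted p reached 0.476. *Abcc9*, a subunit of the potassium channel of pericytes, had 1.54, 1.63 and 1.30 FPKM in Control and 1.19, 0.823 and 0.997 FPKM in KSPAPN (log2 fold change -0.56, adjusted p = 0.131). The groups did not overlap for *Abcc9*, as for 24.4% of all genes tested. These 2 genes were the extremes among those of at least 1 FPKM, with estimates of opposite sign. Of the 12 tested, 8 were above 0 and 4 below, with *Kcnj8*, named here after its values were seen, at -0.49. *Rgs5* did not follow the dip of the members in KSPAPN replicate 2.

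Of 16 fibroblast genes 16 were tested and 0 were called, with a median of 0.20 and 10 of 16 above 0, where 51.9% of all genes tested were above 0. The direction depended on which libraries were kept. Without Control replicate 2 the median was -0.09 with 8 of 16 above 0, and without KSPAPN replicate 1 it was 0.07. With both libraries numbered 2 left out it was 0.16 with 9 of 16 above 0. Their summed FPKM was 109, 74.7 and 101 in Control and 123, 84.3 and 102 in KSPAPN, low in both libraries numbered 2 as for the members. The highest estimate among those of at least 1 FPKM was that of *Dpt*, dermatopontin, with 2.07, 1.74 and 1.75 FPKM in Control and 3.14, 2.0 and 2.91 FPKM in KSPAPN (log2 fold change 0.55, adjusted p = 0.272 with edgeR). The lowest was that of *Tcf21*, a transcription factor of kidney stroma, at -0.24 (adjusted p = 0.534).

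Of 17 matrix glycoprotein and remodelling genes 16 were tested, 0 were higher and 1 was lower, with a median of 0.21 and 12 of 16 above 0. The median was 0.09 without Control replicate 2 and 0.06 without KSPAPN replicate 3, and the block called 2 genes of this list higher, *Lox* and the proteoglycan gene *Bgn*. The lower one was *Timp3*, the tissue inhibitor of metalloproteinases that stays bound to matrix, with 117, 118 and 101 FPKM in Control and 60.7, 80.8 and 80.7 FPKM in KSPAPN. The groups did not overlap, and the log2 fold change was -0.59 (SE 0.13, adjusted p = 0.0388 with edgeR). The call was lost in 5 of the 6 fits that left out a library and with limma on FPKM, with the adjusted p at 0.177 without Control replicate 1, while DESeq2 (0.000523) and the block (0.0308) kept it. *Lox*, the enzyme that crosslinks collagen and elastin, had the highest estimate of this list with a log2 fold change of 0.96 (adjusted p = 0.220 with edgeR). It had 0.449, 0.599 and 1.01 FPKM in Control and 0.741, 1.19 and 2.07 FPKM in KSPAPN, and it passed with the replicate number as a block (0.0365) and without a filter (0.00499).

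The signalling genes around the members gave no call with edgeR after the filter on low counts, with all 6 libraries and no block. Of the 4 PDGF ligand genes 0 were called, with a median of 0.08 and *Pdgfc* as the member with the greatest absolute estimate (-0.24, adjusted p = 0.554 with edgeR). Of 24 genes of the TGF-beta pathway 23 were tested and 0 were called, with a median of -0.03 that was 0.04 when only total counts were used. Without KSPAPN replicate 1, 1 of them was called lower. The block called 1 of them lower (*Furin*), and the fit without a filter 3 (*Furin*, *Itgb6* and *Itgb8*), which were named after these values were seen apart from *Itgb6*. Among them the receptor gene *Tgfbr1* had 7.84, 8.14 and 8.21 FPKM in Control and 9.01, 9.26 and 10.7 FPKM in KSPAPN, every KSPAPN library above every Control library, with a log2 fold change of 0.27 (adjusted p = 0.165). *Itgb6*, the epithelial integrin chain that frees latent TGF-beta, had 14.2, 16.9 and 12.6 FPKM in Control and 8.04, 12.1 and 11.8 FPKM in KSPAPN, also without overlap (-0.45, adjusted p = 0.154).

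Of 13 genes known to respond to TGF-beta 13 were tested and 0 were called, with a median of -0.07. The block and DESeq2 each called 1 lower (*Id3*), and the fits without a filter and without KSPAPN replicate 1 each called 2 (*Id3* and *Jund*). Their extremes were *Jund*, an AP-1 subunit (-0.46, adjusted p = 0.359 with edgeR), and *Snai2*, a transcriptional repressor (0.25, adjusted p = 0.718). *Ccn2*, a matricellular target of TGF-beta named here after its values were seen, had a log2 fold change of 0.03. *Id3*, an inhibitor of helix-loop-helix factors and also named after its values were seen, had 18.9, 17.1 and 20.3 FPKM in Control and 14.7, 13.4 and 13.1 FPKM in KSPAPN, and its log2 fold change of -0.45 missed the threshold (adjusted p = 0.0687) but passed it with DESeq2 (0.0246), without a filter (0.0271), with the block (0.0454) and without KSPAPN replicate 1 (0.0476). *Tgfb1* itself passed in none of the 14 alternative settings.

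**Figure D4:**
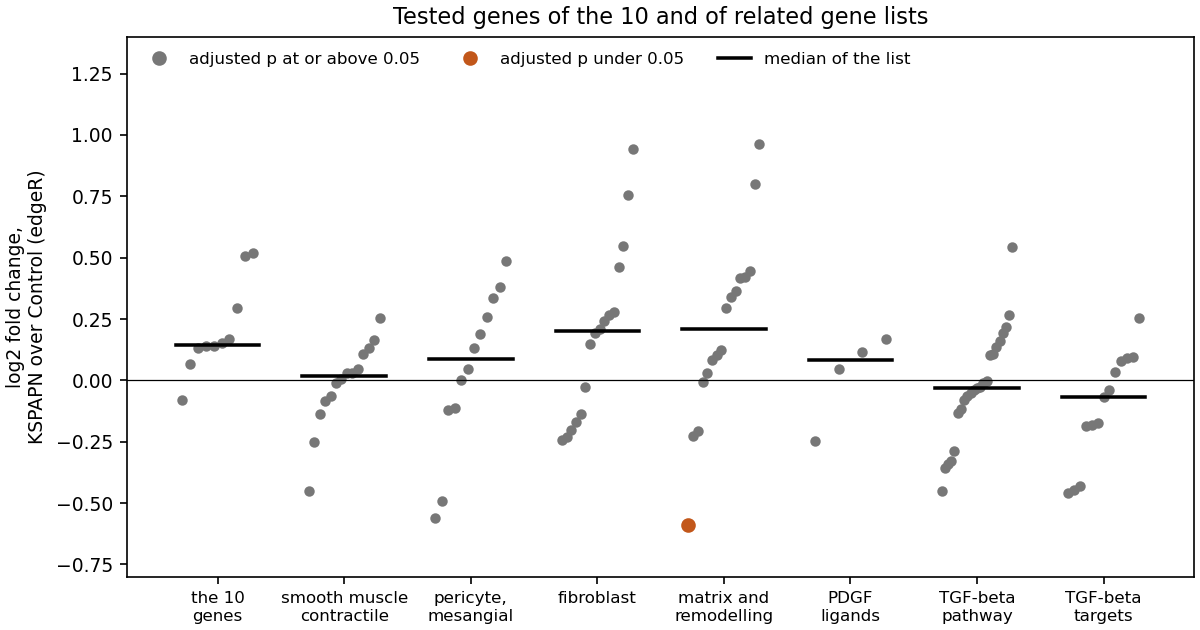
Log2 fold changes of the tested genes of the 10 and of the 7 stromal, matrix, PDGF and TGF-beta lists. The y axis is the log2 fold change of KSPAPN over Control from edgeR, each point is 1 tested gene, bars are list medians, and orange marks an adjusted p under 0.05. *Timp3* at -0.59 in the matrix list is the 1 orange point among these lists, and their medians run from -0.07 to 0.21.

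Markers of other cells were read beside these. Of all 17 further lists, 165 of 195 distinct genes were tested, 1 was higher and 4 were lower. These are counts of the size that the shares over all genes tested, 0.393% higher and 2.25% lower, would give for 165 genes. Besides *Timp3*, these were genes of the tubule and liver lists. *Slc12a1*, the salt cotransporter of the thick ascending limb, was higher with 195, 182 and 211 FPKM in Control and 307, 278 and 252 FPKM in KSPAPN (log2 fold change 0.52, adjusted p = 0.0437 with edgeR). *Slc22a6*, the organic anion transporter of the proximal tubule, was lower (-0.46, adjusted p = 0.0388), and so were *Ttr* (-1.17, adjusted p = 0.0388) and *Cyp2e1* (-0.82, adjusted p = 0.0399), listed as liver markers and known in proximal tubule for *Cyp2e1*. All 4 calls were lost when Control replicate 1, Control replicate 2 or KSPAPN replicate 3 was left out, with adjusted p between 0.0944 and 0.193.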

How the data were processed

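After oligo(dT) selection, the authors sequenced the libraries and deposited 1 table of whole-number read counts and FPKM per gene. The submitters' processing notes name STAR 2.5, TopHat, HTSeq 0.6.1, DESeq2 and edgeR without roles. Not given in the sources used here are the build, annotation, strand setting and FPKM library total. Of 54532 identifiers, 54495 matched GENCODE M21 (GRCm38) and 37 did not.

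Counts were tested with edgeR 4.0.16 (R 4.3.3): TMM, filter (minimum count 10, minimum total 15), two-sided quasi-likelihood test, Benjamini-Hochberg adjustment over 16017 genes. This replaces the authors' test on FPKM, for which limma 3.58.1 on log2(FPKM + 1) and log2(FPKM + 0.1) stands as an alternative. Other alternatives were DESeq2 1.42.0, RLE factors, total counts only, no filter, replicate number as a block and each library left out. Scripts were tested on simulated data. p-values measure the spread between pools of mice. FPKM served for levels and ratios.

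The 10 genes and all lists were chosen with earlier results of these data known. All 10 are named; of each further list, genes at an adjusted p under 0.05, otherwise the one with the greatest absolute change at a mean of at least 1 FPKM, and for the stromal, matrix and TGF-beta lists the highest and lowest such gene. *Adipoq* checked the transgene. No member shares an exact stretch of 100 bases with another gene. Promoters came from RefSeq (GRCm38.p6).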

Additional observations from a re-analysis of the deposited data

How the results depend on the processing

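The count of members lower stayed at 0 in all 14 alternative settings and the count higher at 0 in 13. Without a filter on low counts 2 were higher, *Dcn* and *Fn1*. For the 10 genes the median change (log2) was between 0.04 and 0.33 with a library left out and between 0.10 and 0.22 otherwise, against 0.15, and single libraries moved it by over 1.5 times (0.04 without Control replicate 2, 0.26 without Control replicate 3, 0.33 without KSPAPN replicate 2 and 0.08 without KSPAPN replicate 3). Estimates that changed sign were *Acta2* at 0.03 without KSPAPN replicate 2 (-0.24 to 0.03 over the libraries left out), *Tagln* at -0.06 without KSPAPN replicate 1 (-0.06 to 0.38), *Myh11* at -0.04 without Control replicate 2 (-0.04 to 0.27) and at -0.12 without both libraries numbered 2, and *Tgfb1* at -0.04 without Control replicate 2, at -0.23 without KSPAPN replicate 1 (-0.23 to 0.30) and at -0.01 with limma on log2(FPKM + 0.1). The cause was not tested. Leaving out both libraries numbered 2 and allowing 1 mismatch to the CArG box, with which 1 member promoter matched in place of 0, were chosen after seeing the data.

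Over all genes, 63 were higher and 361 lower. DESeq2 gave 214 and 763, no filter 301 and 1038, limma with a pseudocount of 1 gave 10 and 118, limma with 0.1 gave 10 and 109, and leaving out both libraries numbered 2 gave 7 and 57. With total counts only, 195 were lower. Leaving out 1 library gave 5 to 162 higher and 34 to 571 lower. Of the further lists, 1 gene was higher and 4 were lower. No filter gave 8 and 14, limma gave 0 and 0 with a pseudocount of 1 and 0 and 0 with 0.1, and leaving out both libraries numbered 2 gave 0 and 0. DESeq2 gave 7 lower and total counts only 2 lower, and leaving out 1 library gave 0 to 4 higher and 0 to 9 lower.

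The replicate numbers were not taken as a pairing. Deviations of same-numbered libraries from their group means correlated at 0.0537, 0.154 and 0.173, not all over 0.1, although each library correlated best with its own number. With the replicate number as a block, 0 members were called, 224 genes were higher and 705 lower, and 5 and 8 genes of the further lists.

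Counts of 11 to 27 for *Tagln* and 49 to 87 for *Postn* limit what can be said of them, and the pools hide the spread between mice. Intervals cover the fitted spread between 3 libraries a group.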

Other observations

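Lists of the cells next to the stroma gave no call in the edgeR test of all 6 libraries apart from those named above. Of 10 endothelial markers 10 were tested and 0 were called, with a median log2 fold change of 0.04, and the gene with the greatest absolute estimate was *Ehd3* of glomerular endothelium (0.18, adjusted p = 0.613 with edgeR). Of 7 podocyte markers 7 were tested and 0 were called, and 7 of 7 estimates were above 0, with a median of 0.24. This count rested on single libraries, since 4 of 7 were above 0 without Control replicate 2 (median 0.10) and 4 of 7 without KSPAPN replicate 3 (median 0.07). The block and the fit without a filter each called 1 podocyte marker higher. *Ptpro*, a phosphatase of the podocyte, had 1.63, 0.875 and 1.75 FPKM in Control and 1.79, 1.99 and 2.30 FPKM in KSPAPN (0.52, adjusted p = 0.277), with its lowest value in Control replicate 2. Of 10 proximal tubule markers 10 were tested and 1 was lower, with a median of -0.18, and of 11 distal nephron and collecting duct markers 10 were tested and 1 was higher, with a median of 0.05.

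Of 9 urothelium markers 8 were tested and 0 were called, with 7 of 8 below 0 and a median of -0.31. *Upk3a*, a uroplakin of the bladder and pelvis lining, had 2.67, 3.01 and 3.02 FPKM in Control and 1.89, 2.15 and 1.46 FPKM in KSPAPN, from 33 to 58 counts (-0.66, adjusted p = 0.220 with edgeR). Leukocyte markers were low, with 4 of 9 tested, 0 called and *Csf1r*, a macrophage receptor, at -0.19 (adjusted p = 0.282). Of 7 adipocyte markers 4 were tested and 0 were called, and *Fabp4*, which endothelium also makes, was at 0.34 (adjusted p = 0.209). Of 10 liver markers 7 were tested and 2 were lower. Of 10 striated muscle markers 2 were tested and 0 were called, and their sum was between 0.922 and 1.60 FPKM. Of 7 nephron injury markers 6 were tested and 0 were called, and *Clu*, clusterin, had 47.7, 50.1 and 49.1 FPKM in Control and 43.6, 33.6 and 33.8 FPKM in KSPAPN (-0.40, adjusted p = 0.101). *Clu* passed with DESeq2 (0.0326), without a filter (0.00821) and without KSPAPN replicate 1 (0.0116), and not with the block (0.0611).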
